A study of Homo sapiens with 2 samples.

Results

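The RFX transcription factor family was examined through the accessible chromatin at its 8 genes, RFX1 to RFX8, in H1 human embryonic stem cells. A region belonged to a locus when a summit of it lay in the annotated gene body or within 50 kb of it, a rule that uses position only. It found 127 of the 160327 regions in the peak list (0.0792%), and no region fell in more than 1 locus. H1 is an established line of pluripotent cells. They were assayed from frozen stock, and after thawing were treated with DNase I, which digests free DNA, purified on Ficoll and profiled by Omni-ATAC, in which a transposase inserts adapters into open DNA. The 2 samples make up 1 group without a second condition, and 1 list of peaks serves both. There is therefore no value per sample, no spread between replicates and no test over samples for any value below. The size of a region is the authors' fold over a background that is not described, taken at the region's strongest summit, and it is used only to describe and rank regions within this list. Library depths were not analysed here. Intervals are exact 95% intervals (Clopper-Pearson for shares, Poisson for counts) and cover counting error only.

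RFX proteins bind DNA through a winged helix that recognises the X box, an inverted repeat of 2 arms of the type GTTGCC and GGCAAC. RFX1, RFX2 and RFX3 are close relatives that dimerise, and RFX2 and RFX3 activate genes of the cilium. RFX4, RFX6 and RFX8 also carry a dimerisation domain. RFX4 acts in the developing brain and the testis, RFX6 is needed for the endocrine cells of the pancreas, and RFX8 is little studied. RFX5 and RFX7 lack that domain. RFX5 works with RFXAP and RFXANK at the promoters of MHC class II genes, and RFX7 has been described as a growth-restraining factor downstream of p53.

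The X boxes in accessible chromatin of the family's own loci are shown first, because they are the sites that RFX proteins are known to bind. The search was for GTTNCC followed by 0 to 3 bases and GGNAAC, on both strands, and capitals mark the match. Each run is given 5′ to 3′ on the strand of the gene, from the GRCh38 reference.
RFX4, internal start, chr12:106601129-106601158: cctgtggcGTTGCCATGGCAACccactgac
RFX2, canonical start, chr19:6110584-6110613: ctggtaaccGTTGCCGGTAACaacgccccg
RFX2, intron, chr19:6066798-6066826: ggactgcGTTGCCCCTGGCAACcgttgtt
RFX2, upstream region, chr19:6217050-6217079: gtccctctGTTGCCTTGGTAACaggaatat
These were the 4 regions with an X box anywhere among the 127 (3.15%, interval 0.865% to 7.87%), beside 0.752% of all regions in the list and 1.72% of regions at protein-coding canonical starts. The interval lay above the share of the whole list and included that of start regions. This count over whole regions was not planned. The planned count, within 50 bp of the strongest summit, was 1 region (0.787%, interval 0.0199% to 4.31%). That interval included the 0.374% of all regions. The median width was 463 bp at the RFX loci and 447 bp in the list, and its part in this count was not tested. All 4 lay in the windows of RFX2 or RFX4, the upstream one in an intron of the gene MLLT1, and the regions of the other 6 loci held none. The RFX4 site was the perfect palindrome GTTGCCATGGCAAC, which lay within 50 bp of the summit in 56 regions of the whole list (0.0349%). A match describes letters in a window and is not a measurement of binding.

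All 8 genes had an accessible region at the canonical start, meaning that the strongest summit of a region lay within 1000 bp of the start of the Ensembl canonical transcript. The same held for 75.6% of 20033 protein-coding genes. Where a region was present, the median fold over all protein-coding genes was 9.54. RFX2 had the highest promoter fold of the family, 13.7, and RFX7 the lowest, 5.21. Of the 8 genes, 4 lay above the median of 9.54 (RFX2, RFX6, RFX3 and RFX5) and 4 below it (RFX1, RFX8, RFX4 and RFX7). No neighbours in this order can be said to differ, since the list has no spread. By the authors' −log10 p the order was another, with RFX3 highest (346) and RFX8 lowest (42.0).

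**Figure D1:**
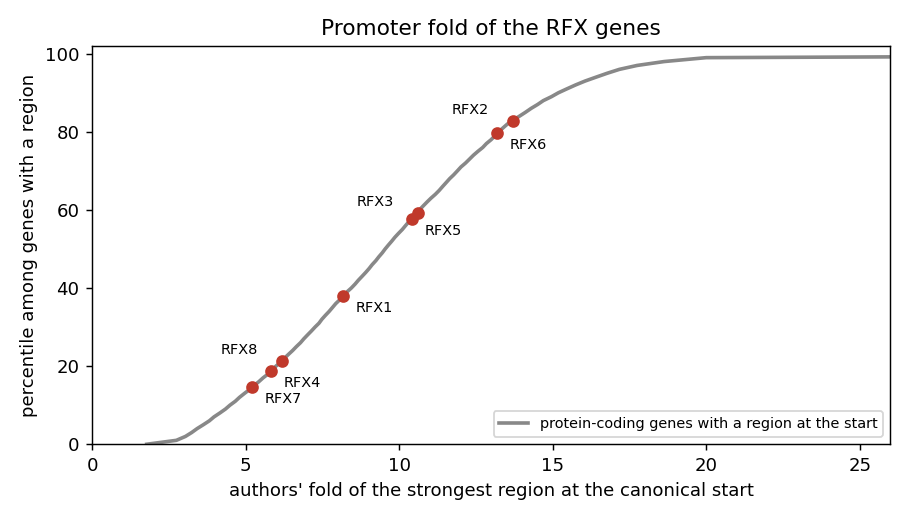
Authors' fold of the strongest region at the canonical start (x axis) against its percentile (y axis) among the protein-coding genes with a region there (grey line). Red points are the 8 RFX genes, which spread from RFX7 at 5.21 to RFX2 at 13.7 and do not gather at one end of the distribution.

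Among the ciliary and ubiquitous relatives, RFX2 and RFX3 had the stronger starts. The RFX2 region (chr19:6110292-6110990) had a single summit at -164 bp, with 71.4% G+C, and its fold of 13.7 was at the 82.8th percentile of genes with a region. The X box of 12 letters lay in it, centred at -98 bp from the canonical start and 66 bp downstream of the summit. It overlapped the start of another annotated RFX2 transcript at 6110601. The outermost annotated start of RFX2 lay 89072 bp upstream of the canonical one, while in the other 7 genes this distance was at most 1203 bp. That distant start had a region of its own (chr19:6199032-6200014) with a fold of 10.2. The start of a noncoding gene without a symbol lay within 1000 bp of the same summit. The region at an internal coding start of RFX2 at 6049232 had a fold of 8.28.

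The RFX3 start was held by a broad region of 1894 bp (chr9:3525403-3527296), the widest of the 127. It had 5 summits with folds of 2.21, 10.6, 8.18, 2.75 and 4.04 in the order of their positions. The strongest lay at -2 bp, and within 50 bp of it was a match to the ETS motif CCGGAAG, the only one so close to a region's strongest summit among the 127. The divergent transcript RFX3-DT starts within 1000 bp of that summit, so the accessibility cannot be given to 1 of the genes. The same region held the annotated starts 18 bp and 3 bp from the canonical one. None of the RFX3 starts from 36514 bp downstream onwards had a region within 1000 bp.

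RFX1 had a fold of 8.17 (38.0th percentile) in a region of 1613 bp with 4 summits (chr19:14005634-14007246), the strongest at -285 bp. It held no full X box but 2 single arms, the nearer one centred 4 bp past the start. The 250 bases before the RefSeq start are printed because RFX1 is a ubiquitous member with CCAAT boxes, the sites of NF-Y, the factor that acts beside RFX5 at MHC class II promoters. Capitals mark CCAAT on either strand, and the CCAAT match at the region's strongest summit lies upstream of the printed bases.
RFX1, chr19:14006321-14006570: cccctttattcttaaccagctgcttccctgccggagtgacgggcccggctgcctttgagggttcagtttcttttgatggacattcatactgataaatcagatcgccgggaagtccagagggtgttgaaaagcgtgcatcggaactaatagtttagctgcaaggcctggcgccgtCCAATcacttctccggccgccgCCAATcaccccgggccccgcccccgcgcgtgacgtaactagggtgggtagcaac
CCAAT occurred in 34.6% of all 35116 RefSeq promoter windows of 300 bases. A further window shows the single arm at the start, in capitals.
RFX1, single arm at the start, chr19:14006302-14006331: tgggtagcaacaGTTGCCccggtgagggaa
In the RefSeq table RFX1, RFX3, RFX4, RFX5 and RFX7 were matched, and RFX2, RFX6 and RFX8 were not.

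Of the 3 members RFX4, RFX6 and RFX8, RFX6, the regulator of pancreatic endocrine cells, had the highest fold at the canonical start. Its region (chr6:116876415-116878028) had 4 summits with folds of 4.57, 13.2, 6.20 and 3.29, the strongest at -75 bp, and ranked at the 79.8th percentile. An internal start annotated for a noncoding RFX6 transcript, 7547 bp downstream, had a region of fold 7.25.

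RFX4 had a higher fold at an internal start than at the canonical one, while the authors' −log10 p was lower there, 48.2 against 124. At the canonical start it had 5.82 (18.8th percentile; chr12:106582613-106583163) and a weak second region of 2.42. At 106601137, where another coding transcript starts 18133 bp downstream, the fold was 7.71, in a region of 1219 bp with 3 summits (chr12:106600545-106601763). The strongest summit of that region fell 29 bp past this start, and the centre of the perfect X box 22 bp before the summit. The RefSeq window of this start is shown up to the end of the X box, which begins 11 bases before the RefSeq start and reaches into the transcript. Capitals mark the X box.
RFX4, internal start, chr12:106600898-106601150: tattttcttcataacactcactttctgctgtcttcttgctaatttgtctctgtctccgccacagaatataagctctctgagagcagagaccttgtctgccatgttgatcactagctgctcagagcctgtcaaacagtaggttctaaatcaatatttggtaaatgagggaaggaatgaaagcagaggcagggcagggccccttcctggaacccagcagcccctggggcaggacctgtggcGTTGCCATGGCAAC
Of all RefSeq promoter windows, 0.740% held an X box and 0.0285% (10 windows) the perfect palindrome. The G+C content of this window of 300 bases was 52.3% with 2 CpG, against 52% with 16 CpG at the canonical start of RFX4. Another RefSeq start of RFX4, at 106684729, lay in no region.

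At RFX8 the strongest summit lay within the gene and not at its outermost base. The strongest summit of its start region (chr2:101473832-101475170; folds 6.17, 5.18 and 3.19) lay 911 bp downstream of the canonical start and 74 bp downstream of a later coding start at 101474275. A region of fold 8.87, the highest in the RFX8 locus, lay at 101435119, 13 bp before the start annotated for a transcript with a retained intron.

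RFX5 and RFX7 differed at their starts. RFX5 had 10.4 (57.8th percentile), with the strongest summit at -89 bp of a region with 2 summits (chr1:151346731-151347666), close to the start of the antisense gene RFX5-AS1. The part of its RefSeq window that lies before every coding transcript start is printed for its 2 CCAAT boxes, in capitals.
RFX5, chr1:151347327-151347502: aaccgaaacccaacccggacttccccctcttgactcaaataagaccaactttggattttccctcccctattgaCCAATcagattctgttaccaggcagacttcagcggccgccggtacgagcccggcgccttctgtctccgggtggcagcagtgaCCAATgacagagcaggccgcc
RFX7 had 5.21 (14.6th percentile) at the canonical start (chr15:56242935-56244109), with 3 summits of 2.66, 4.60 and 5.21. A neighbouring region of 5.12 lay between this start and the outermost one, with its summit also in the annotated gene TEX9. The G+C content of the first of these regions was 70.3%, close to that of RFX2 (71.4%), so the members with the lowest and the highest promoter fold were the 2 richest in G+C.

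The number of regions per locus ran from 7 at RFX5, in a window of 107 kb, to 28 at RFX3, in one of 408 kb. Per 100 kb, the 8 loci together had 6.91 regions (interval 5.76 to 8.23) beside 5.46 over the genome and a median of 6.55 over protein-coding genes counted the same way. RFX6 had the highest density, 11.0 per 100 kb (6.39 to 17.6; 88.5th percentile of protein-coding genes), followed by RFX1 with 10.3 (5.77 to 17.0; 84.7th). RFX7 had the lowest, 3.88 (1.86 to 7.13; 19.1st). The other 5 lay between 6.19 and 6.87. The intervals of all 8 loci, and of the 8 together, included the median of 6.55 for protein-coding genes. Those of RFX6, RFX1 and the 8 together lay above the 5.46 of the genome, which also counts sequence far from genes.

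**Figure D2:**
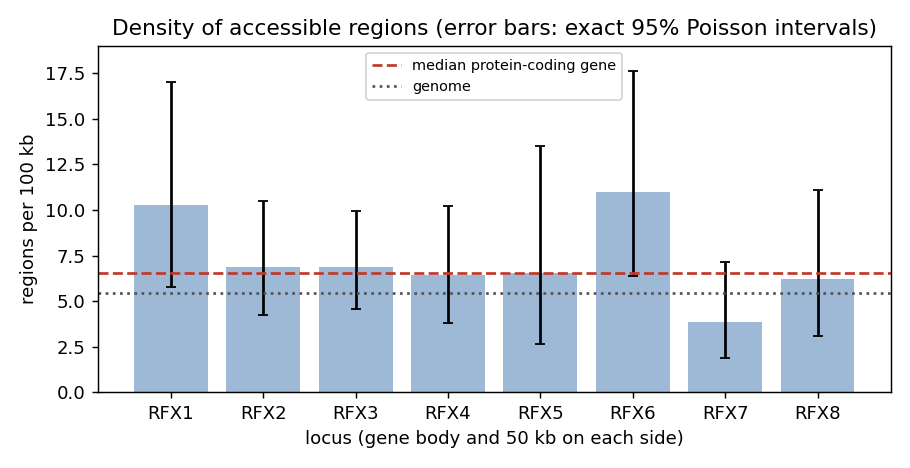
Accessible regions per 100 kb in the gene body and 50 kb on each side of each RFX gene, with exact 95% Poisson intervals for counting error. RFX6 reached 11.0 and RFX7 3.88, beside a median of 6.55 over protein-coding genes (dashed) and 5.46 over the genome (dotted).

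The loci also differed in what surrounds the gene. Of the 127 regions, 70 had the strongest summit in the gene body, 27 upstream and 30 downstream, and for 77 the nearest protein-coding canonical start was that of the RFX gene itself. RFX3 had 26 of its 28 regions nearest to its own start and RFX6 14 of 17, whereas RFX1 had 2 of 15 and RFX5 2 of 7. RFX3 and RFX7 had no other protein-coding canonical start in their windows, but the 3 upstream regions of RFX7 lay in the annotated gene TEX9. Open neighbours were DCAF15 (12.9) and IL27RA (6.84) at RFX1, RANBP3 (12.3) at RFX2, RIC8B (10.9) at RFX4, PI4KB (12.6) and SELENBP1 (7.56) at RFX5, and CREG2 (8.04) at RFX8. The neighbours PODNL1, RLN3, ACSBG2 and GPRC6A had no region at the canonical start. At RFX1 and RFX5 the strongest region of the window was thus the start of a neighbour.

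By place, with starts taken as canonical starts only, 17 regions lay at a protein-coding start (13.4%, interval 8.0% to 20.6%; 9.71% of all regions), 7 at the start of another gene type (5.51%; 4.05%) and 7 in exons (5.51%; 5.41%). Introns held 80 (63.0%, 54.0% to 71.4%; 50.4% of all regions) and intergenic sequence 16 (12.6%, 7.38% to 19.7%; 30.4%). The windows were drawn around genes, which bears on the intron and intergenic shares. More than 1 summit was found in 42 regions (33.1%; 30.7% of all regions). The median fold was 5.75, from 2.36 to 16.7, beside 5.38 for the whole list. Away from canonical starts the 103 regions had a median of 5.27, beside 5.17 for such regions in the list. These include regions at other annotated starts of the members, such as the internal start of RFX4 (7.71). Above the 90th percentile of the list, a fold of 11.9, were 8 of the 127 regions (6.30%; 10.0% of the list).

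**Figure D3:**
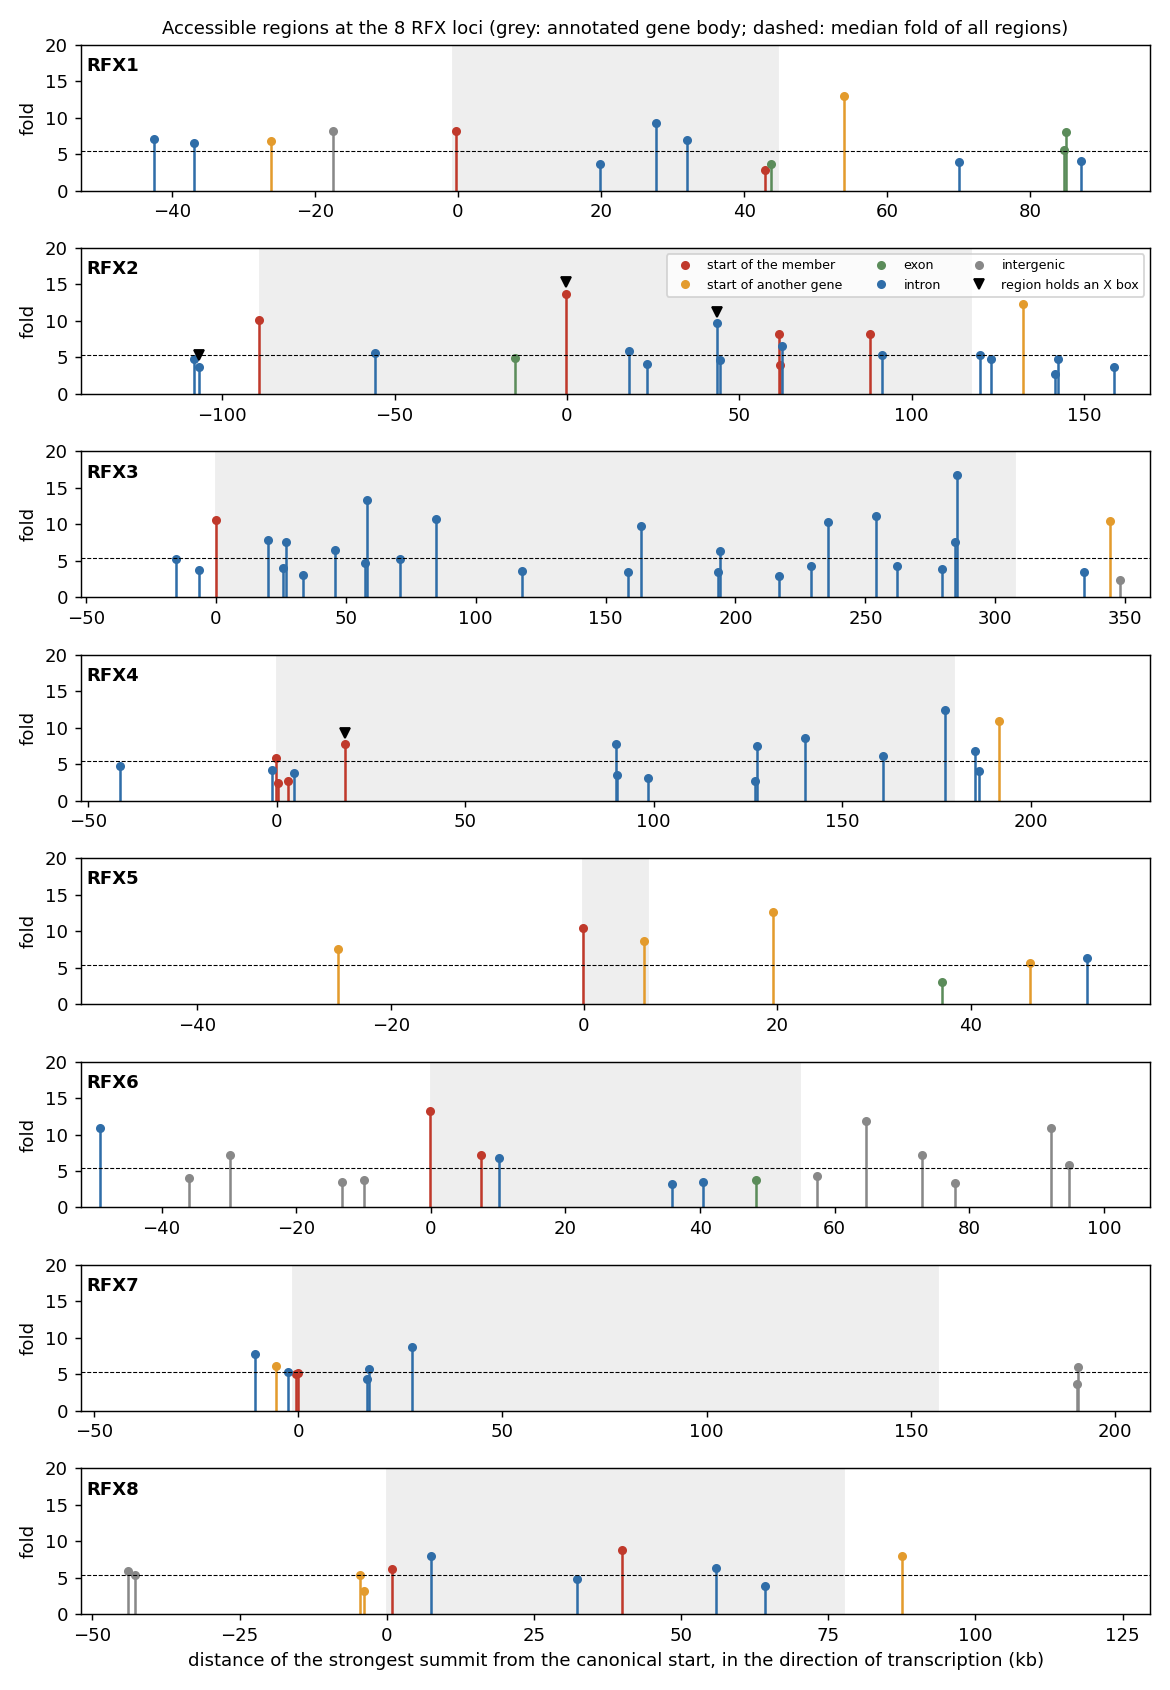
Each panel shows 1 locus. Stems give the authors' fold (y axis) of each region at the distance of its strongest summit from the canonical start, in kb along the direction of transcription (x axis). Colours give the place of the summit, and black triangles mark regions with an X box, which are 3 at RFX2 and 1 at RFX4. RFX3 carries its highest fold, 16.7, far into the gene, and the body of RFX7 is empty beyond 27.9 kb.

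The highest fold of all 127 regions was not at a start but in an intron of RFX3, 285126 bp downstream of the canonical start (chr9:3240704-3241067, fold 16.7, 98.0th percentile of the list). The bases within 50 bp of its summit are printed because they hold a match to the core of the CTCF motif, in capitals. CTCF is the zinc-finger protein that anchors chromatin loops.
RFX3, intron, chr9:3240825-3240925: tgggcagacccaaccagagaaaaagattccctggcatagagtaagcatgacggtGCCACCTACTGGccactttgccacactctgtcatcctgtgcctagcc
RFX3 held 3 further intronic regions with folds above that of its start. They had folds of 13.4 at 58209 bp, 11.2 at 254242 bp and 10.8 at 84612 bp from the start. The authors' −log10 p was lower in each of these intronic regions (221, 140, 84.7 and 71.5, from the highest fold down) than at the start (346). The region of 13.4 held the SOX motif CATTGT and that of 10.8 a single X box arm within 50 bp of the summit.

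In RFX2 the strongest intronic region, with a fold of 9.68, was the one with the X box of 15 letters. The arm GTTGCC was also found at the summit itself, so that the region held both. The bases within 50 bp of this summit are shown with the single arm, the first arm of the X box and the SOX motif in capitals. The window ends within the second arm of the X box.
RFX2, intron, chr19:6066807-6066907: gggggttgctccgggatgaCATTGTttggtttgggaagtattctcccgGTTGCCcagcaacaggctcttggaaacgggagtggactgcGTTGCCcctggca
The remaining X box region of this locus, with a fold of 3.73, lay upstream of RFX2, in an intron of MLLT1. Its X box was centred at -106564 bp from the canonical start of RFX2. Of the 8 regions with a CTCF core match within 50 bp of the summit, 4 lay at RFX2, with folds of 8.16, 8.28, 4.90 and 4.72.

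RFX4 had its highest fold, 12.5, in an intron near the end of the gene, 177271 bp from the start. Between the X box region and the next summit, 71.7 kb further, no region was listed. RFX7 had the longest such stretch, 163 kb from 27.9 to 191 kb downstream of its start, which takes in most of the gene body. Its highest fold was 8.73, at 27947 bp, and no fold there reached 10. RFX6 differed in that 10 of its 17 regions were intergenic. After the start, its highest folds were 11.9 at 64699 bp, 10.9 at 92149 bp and 10.9 at -49195 bp, the last in an intron of GPRC6A. RFX1 had 9.27 in an intron at 27744 bp and 8.20 in intergenic sequence at -17399 bp, and RFX8 7.94 at 7594 bp. In RFX5 the only region with its summit in the gene body had 8.63 and a CTCF core match, 6217 bp past the canonical start and at the start of a gene of another type without a symbol.

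Motif matches within 50 bp of the strongest summit were counted for 11 motifs, on both strands. At the RFX loci 1 region had an X box (0.787%, interval 0.0199% to 4.31%; 0.374% of all regions and 0.544% of those at protein-coding canonical starts), the internal start of RFX4. The single arm GTTGCC, which also occurs inside X boxes, was found in 9 (7.09%, 3.29% to 13%; 4.94%). CCAAT was found in 17 (13.4%; 13.6%), the GC box GGGCGG in 17 (13.4%; 10.3%) and the TEAD motif CATTCC in 11 (8.66%; 11.0%). The SOX motif CATTGT and the CTCF core were each found in 8 (6.30%; 6.93% and 5.46%). AP-1 (TGANTCA) was found in 4 (3.15%; 4.50%), FOX (TGTTTAC) in 3 (2.36%; 1.75%), the octamer ATGCAAAT in 2 (1.57%; 2.31%) and ETS in 1 (0.787%; 1.31%). All 11 intervals included the share of the whole list, so within 50 bp of the summit no motif was detectably more or less frequent at these loci. Only the unplanned count of X boxes anywhere in the region, given above, had an interval above the list (3.15% against 0.752%).

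**Figure D4:**
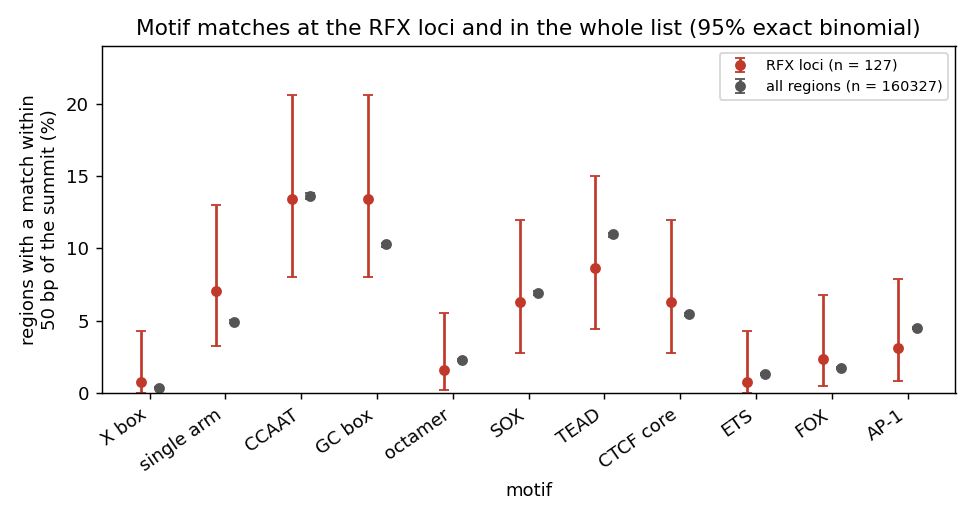
Percent of regions with a motif match within 50 bp of the strongest summit (y axis) for 11 motifs (x axis), at the RFX loci (red, n = 127) and in the whole list (grey, n = 160327), with exact 95% binomial intervals. Each red interval spans the grey point, and the X box is at 0.787% against 0.374%.

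CCAAT was found at the strongest summits of the canonical starts of RFX1, RFX2 and RFX5. Over all regions at any annotated start of a member it was 5 of 19 (26.3%, interval 9.15% to 51.2%), and all 5 lay at a canonical start. The share was 23.6% for the strongest regions at protein-coding canonical starts. The 19 also include internal and other starts, so the 2 shares are not of like sets. The other 2 were the weaker second regions at the starts of RFX4 (2.42) and RFX7 (5.12). No match was found within 50 bp of the strongest summit at the canonical starts of RFX3, RFX4, RFX6, RFX7 and RFX8. The GC box was found at the strongest summits of the canonical starts of RFX2, RFX5 and RFX6. Over all regions at any annotated start of a member it was also 5 of 19, with the same interval. It included the 50.2% of the strongest regions at protein-coding canonical starts, again a set unlike the 19. Anywhere in the region, the single arm was present in 33 of the 127 regions (26%, 18.6% to 34.5%) beside 19.5% of all regions and 36.4% of those at protein-coding canonical starts. In 2 of these 33 regions (6.06%, interval 0.743% to 20.2%), 1 each at RFX1 and RFX6, the arm stood in the run GTTGCCcaggctggagtg, chosen after its value was seen and a stretch of the kind found in Alu repeats. Over the list this applied to 1.21% of regions with the arm.

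Genes known to work with or under RFX factors were examined at their canonical starts. All 41 primary cilium genes had a region (interval 91.4% to 100%; 75.6% of all protein-coding genes), with a median fold of 12.89 beside 9.54 and a range of 6.79 to 20.4. Among the highest were DYNC2H1 (20.4), a motor subunit of retrograde transport, and IFT57 (20.3), a subunit of the intraflagellar transport complex. Of the 16 motile cilium genes 15 had one (93.8%, interval 69.8% to 99.8%, which includes 75.6%), with a median of 11.06. Within 500 bp of the start it was 12 of 16 (75.0%), and all 41 primary cilium genes had a region within that distance. HYDIN (19.9), RSPH4A (19.4) and TEKT1 (15.6), which encode parts of the axoneme, were the highest, FOXJ1, the master regulator of motile cilia, had 7.69, and GAS8 had none. Ciliary starts were thus listed as open in these pluripotent cells, also for structural genes of motile cilia. The count of motile cilium genes did not stand apart from the share of all protein-coding genes.

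The X box was found at the starts of 7 of the 41 primary cilium genes, anywhere in the region (17.1%, interval 7.15% to 32.1%), beside 1.72% of all regions at protein-coding starts. For motile cilium genes it was 1 of the 15 open starts (6.67%, 0.169% to 31.9%). Within 50 bp of the summit the single arm was found at 11 of the 41 (26.8%, 14.2% to 42.9%) and 7 of the 15 (46.7%, 21.3% to 73.4%), beside 5.18% of all regions at protein-coding starts. The intervals of both lists lay above that share. The lists were chosen as genes tied to RFX factors, with earlier results of these data known. A higher share of X boxes or arms in them is therefore not independent evidence. The sites of 6 genes are printed to be set beside those of RFX2 and RFX4, on the strand of each gene and with the X box in capitals.
HYDIN, chr16:71230704-71230733: gctccgtgGTTACCGTGGCAACggacggca
ARL3, chr10:102714316-102714344: cgcagcaGTTGCCCCTGGTAACgggggag
ARL6, chr3:97764726-97764755: aagctcctGTTGCCAAGGGAACggtgcctg
BBS2, chr16:56519619-56519647: cagcccgtGTTGCCCGGCAACcggtcggc
IFT122, chr3:129440205-129440233: catgtacGTTGCCAGGGGTAACgcaggta
TMEM107, chr17:8176404-8176433: cgtacacgGTTACCAAGGCAACtgggcggt
In 4 of these 6 genes the X box was centred within 50 bp of the canonical start, at 4 bp in HYDIN, -18 bp in ARL6, -5 bp in IFT122 and -38 bp in TMEM107. It lay at 67 bp in ARL3 and at 391 bp in BBS2.

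**Figure D5:**
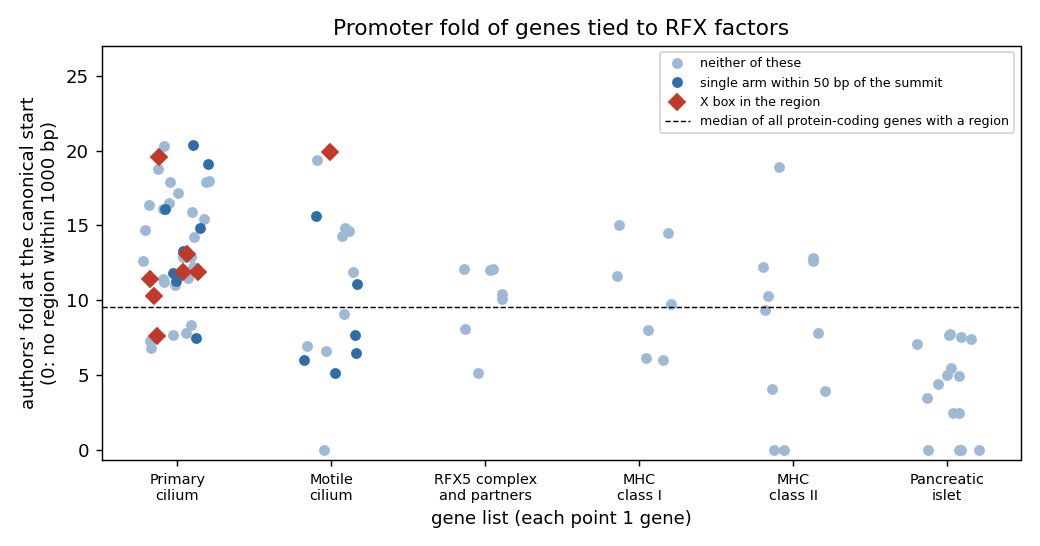
Authors' fold of the strongest region at the canonical start (y axis; 0 where no region was listed) for each gene of 6 lists (x axis). Red diamonds mark regions with an X box, dark points those with a single arm within 50 bp of the summit. Primary cilium genes have a median of 12.89 and hold 7 of the 8 X boxes, and pancreatic islet genes lie below the median of all protein-coding genes, 9.54 (dashed).

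The 7 partners of RFX5 were all listed as open (100%, interval 59.0% to 100%), beside 75.6% of all protein-coding genes. That share lay within the interval of this list and of the MHC class II, MHC class I and islet lists, so none of their counts stood apart from it. RFXAP had 12 and RFXANK 10.4, the NF-Y subunits NFYA, NFYB and NFYC had 8.11, 12.1 and 10.1, CREB1 had 12.1, and CIITA, the coactivator that switches on MHC class II genes, had the lowest, 5.17. Of the 11 MHC class II genes 9 had a region (81.8%, interval 48.2% to 97.7%), with a median of 10.33. The highest were HLA-DRB1 (18.9), HLA-DMB (12.8) and HLA-DMA (12.6), and HLA-DOB and HLA-DQA1 had none. All 7 MHC class I genes had one (interval 59.0% to 100%, median 9.73), among them B2M (14.5) and HLA-C (11.6). Genes of the HLA families are near-identical in parts, and how the authors treated reads that fit several of them is not known here, so their single values are uncertain. Of the 16 pancreatic islet genes, the context of RFX6, 12 had a region (75.0%, 47.6% to 92.7%) with a median of 5.23 and none above 7.73. ISL1 (7.73), PCSK1 (7.65) and KCNJ11 (7.53) were the highest, and GCG and INS, which encode glucagon and insulin, had none, nor had PAX4. The summits of PCSK1 and KCNJ11 lay at 524 bp and -997 bp from the start. Within 500 bp of the start 10 of the 16 islet genes had a region (62.5%). None of the RFX5, MHC or islet starts held an X box of the form searched. That form needs both arms with the given letters, so a site of another form would not be found. The absence therefore does not show that these starts lack sites for RFX5 or other RFX proteins.

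The label of the cells was checked through the canonical starts of marker genes. Of 10 pluripotency genes 9 had a region (median fold 8.57), POU5F1 being the exception, and of 6 blood genes none had (0%, which allows up to 45.9%). Of 6 fibroblast genes 4 had a region (66.7%, interval 22.3% to 95.7%), with folds from 4.24 to 8.26, while COL1A1 and COL3A1 had none. The 75.6% of all protein-coding genes lay within the intervals of the pluripotency and fibroblast lists and above that of the blood list. The counts of pluripotency and fibroblast genes therefore do not tell these cell types apart. An accessible start is not a measure of transcription, and expression of the RFX genes was not analysed here.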

How the data were processed

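ATAC-seq of 2 samples of H1 cells was deposited as 1 peak list. Per the submitters' processing notes the build was GRCh38; no aligner, peak caller or setting is named (not given in the sources used here). Per summit the authors deposited a fold (a ratio over background), a −log10 p and −log10 q, and a score, of which the fold and the −log10 p were used. The summit position is the deposited offset. Rows with identical coordinates were taken as 1 region with its strongest summit. Genes came from GENCODE release 44 (a 5′ end within 1000 bp made a start region), sequences from the hg38 reference and from RefSeq (GRCh38.p14, windows of 250 bases before to 50 after a start). The chromosome names matched. Counts used Python 3.11.15, pandas 2.3.3, scipy 1.17.1 and pysam 0.24.0, and were tested on simulated data. With blastn 2.17.0, 0 of the 127 regions aligned to mitochondrial DNA. The fold and the −log10 p come from 1 list, and 0 columns were left unmapped. The members, gene lists, motifs and named genes were chosen with earlier results of these data known. Named were all members and their start regions, the 3 strongest regions of each window, open neighbours, and for each list the 3 highest and the first 3 without a region, of which some are not reported here. PAX4, POU5F1, COL1A1 and COL3A1, the sequences shown, the stretches without regions and the CCAAT promoters were chosen after their values were seen.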

Additional observations from a re-analysis of the deposited data

How the results depend on the processing

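Of 86 values under alternatives, 68 stayed and 18 moved. Counts stayed if within 1.5 times the reported value, and shares and the median fold if within the interval. Promoter folds stayed if the same region was picked. The number of regions fell from 127 to 73 in the gene body alone, to 70 above the list's median −log10 p, and to 77 where the nearest protein-coding start is the member's (chosen after seeing the data). The median fold of 5.75 (interval 5.12 to 6.50) became 7.72 above the median −log10 p and 4.69 with every summit. At the outermost 5′ end RFX2 had 10.2 and RFX7 5.12, and at any annotated start RFX4 had 7.71 and RFX8 8.87. With 25 bp at the summit the shares of X box, CCAAT, TEAD and ETS were 0, 7.87%, 2.36% and 0, with 100 bp CCAAT had 22.8% and TEAD 18.9%, and over whole regions (also added) the single arm had 26%. Narrower and wider windows hold fewer and more bases. Motile cilium genes had a region in 100% of cases at the outermost 5′ end and at any annotated start, and in 75.0% within 500 bp. All 8 RFX genes had a region at the outermost 5′ end, at any annotated start, by overlap and above the median −log10 p, and 7 had one within 500 bp. No paired analysis was possible because both samples share 1 list, and no replicate could be left out.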
